A study of Mus musculus with 79 samples.

Results

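EGCG, a green tea catechin, was compared with its solvent DMSO in mouse T helper 17 cells grown under non-pathogenic conditions (Th17n) and sorted after exactly 1 cell division (Div.1). The comparison holds 9 of the 79 libraries of the series: 5 libraries of Th17n cells given EGCG at 20 µM (wells G1 to G5) and 4 of Th17n cells given DMSO (wells E1 to E4), all chosen by their labels. Both groups were differentiated in vitro with TGFb and IL6, and both were stained with the division dye CFSE before culture, so that cells whose dye had been diluted by 1 division could be sorted by flow cytometry. Unsorted cultures (Total), cells grown with IL1b, IL6 and IL23 (Th17p) and cells given DHEA at 50 µM or its solvent methanol were prepared in the same series and are used below for 3 comparisons of the response. The series names 5 mice per condition as its biological replicates. The labels give no strain, sex, age or culture time, and they name no genetic change. RNA with a polyA tail was sequenced, and the measured quantity is TPM, an abundance of transcripts that is already corrected for transcript length and scaled to the total of its library.

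A further library, from well A4, carries the same label as the DMSO group but sits outside row E of the plate, and it goes against that label. Its Foxp3 stood at 0.394 TPM, against 71.5 to 136 TPM in the 4 DMSO libraries of row E and 0.0385 to 0.766 TPM in the 4 Th17p DMSO Div.1 libraries. Il22 stood at 388 TPM in well A4, against 0.303 to 7.36 TPM in row E and 264 to 380.1 TPM in Th17p DMSO Div.1. Across genes its correlation was 0.960 to 0.964 with the row E libraries and 0.988 to 0.991 with the Th17p DMSO Div.1 libraries. It is left out of every result here unless a value is said to include it. The series holds no library from well E5.

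Th17 cells are helper T cells that secrete IL-17A and IL-17F and that recruit neutrophils to mucosal surfaces. TGFb with IL6 gives cells that also make IL-9 and IL-10 and share some genes with regulatory T cells, whose defining factor is FOXP3, and such cells are called non-pathogenic because they transfer little autoimmune disease. EGCG has been used as an inhibitor of the glycolytic mutase PGAM1, and DHEA as an inhibitor of glucose-6-phosphate dehydrogenase, the entry enzyme of the pentose phosphate pathway. The p53 protein, a transcription factor stabilised by DNA damage and other stresses, switches on genes that stop the cell cycle, repair DNA or start cell death, and the genes of mitosis are shut down along with it.

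T cell identity genes were well expressed in all 9 libraries, and most defining genes of other cell types were at or near 0. The 7 measured T cell identity markers, among them Cd4 and the CD3 chains, summed to 1271 to 1309 TPM with DMSO and 1599 to 1676 TPM with EGCG, which did not overlap (exact two-sided permutation test, p = 0.0159, the smallest that 4 against 5 libraries allow, and 0.0556 adjusted over 7 marker lists). The 8 measured B cell markers summed to at most 1.89 TPM in any library, with Ms4a1 listed at 0 in all 9, and the 8 measured stromal markers to at most 15.5 TPM, with Col3a1 listed at 0. Markers of CD8 T cells and NK cells, 11 in all, summed to 19.8 to 31.2 TPM with DMSO and 16.6 to 23.9 TPM with EGCG. Of the 11, 6 stayed under 1 TPM in every library, with Gzma listed at 0 in all 9. Of the 5 that could be tested 1 was lower with EGCG and 0 were higher, where 6.77% of all genes were lower. The 13 measured myeloid markers summed to 199 to 210.2 TPM with DMSO and 217 to 254 TPM with EGCG, without overlap (exact two-sided permutation test, p = 0.0159, and 0.0556 adjusted over the 7 lists). Of the 13, 9 stayed under 1 TPM in every library, with H2-Aa listed at 0. Most of the sum was Cst3, a protease inhibitor gene that many cell types express (194 to 207 and 208 to 244 TPM). The 4 myeloid markers that could be tested were all higher with EGCG by limma: Cst3 (0.17 ± 0.05) and the class II antigen presentation genes H2-Ab1 (1.33 to 2.71 and 4.33 to 6.71 TPM, 1.17 ± 0.27), H2-Eb1 (0.108 to 0.242 and 0.442 to 1.62 TPM, 0.69 ± 0.18) and Cd74 (1.15 to 2.75 and 2.73 to 4.06 TPM, 0.62 ± 0.20). After rescaling Cst3 did not pass (0.04, adjusted p = 0.609), and Cd74 did not without well E2 (adjusted p = 0.0665). The 8 erythroid and platelet markers summed to at most 0.972 TPM with DMSO and reached 9.03 TPM in 1 EGCG library, and the single measured gamma delta T cell marker stayed under 1 TPM. The part of these cells in the results below was not tested. Between 9499 and 9574 genes reached 1 TPM in the DMSO libraries and between 9692 and 9774 in the EGCG libraries, which is a difference in breadth between the groups. Read numbers cannot be recovered from TPM, so the depth behind each level is unknown. In bulk RNA, fewer cells that express a gene and less of its RNA in each cell cannot be told apart.

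EGCG changed the level of a large share of genes in these cells, mostly upward and mostly by little. Of 10674 genes tested, 3720 passed an adjusted p of 0.05 (34.9%), with 2997 higher (28.1%) and 723 lower (6.77%) with EGCG. Changes are given throughout as log2 changes of TPM + 1, EGCG minus DMSO, with the standard error of the fit, and the adjusted p is that of limma with Benjamini-Hochberg adjustment over all genes tested. A log2 change of at least 1, which is a doubling, was reached by 183 of the higher genes (1.71% of genes tested), and one of at most -1 by 24 of the lower genes (0.225%). The groups did not overlap for 2438 genes that were higher with EGCG (22.8%) and 484 that were lower (4.53%). The median change of all tested genes was 0.11, not 0. When every library was rescaled by its median ratio to the other libraries, this median moved by -0.11 to 0.00, and 1642 genes were higher (15.4%) and 1671 lower (15.7%). The share of calls that were higher went from 80.6% to 49.6% with the rescaling, so the balance between small increases and small decreases rests on the scale. Both scalings called 2365 genes in the same direction and none in opposite directions. All 723 lower genes were among them, which follows largely from the scale, since rescaling moved the changes downward. The plot of change against level shows how far the leading genes stand from this shift.

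**Figure D1:**
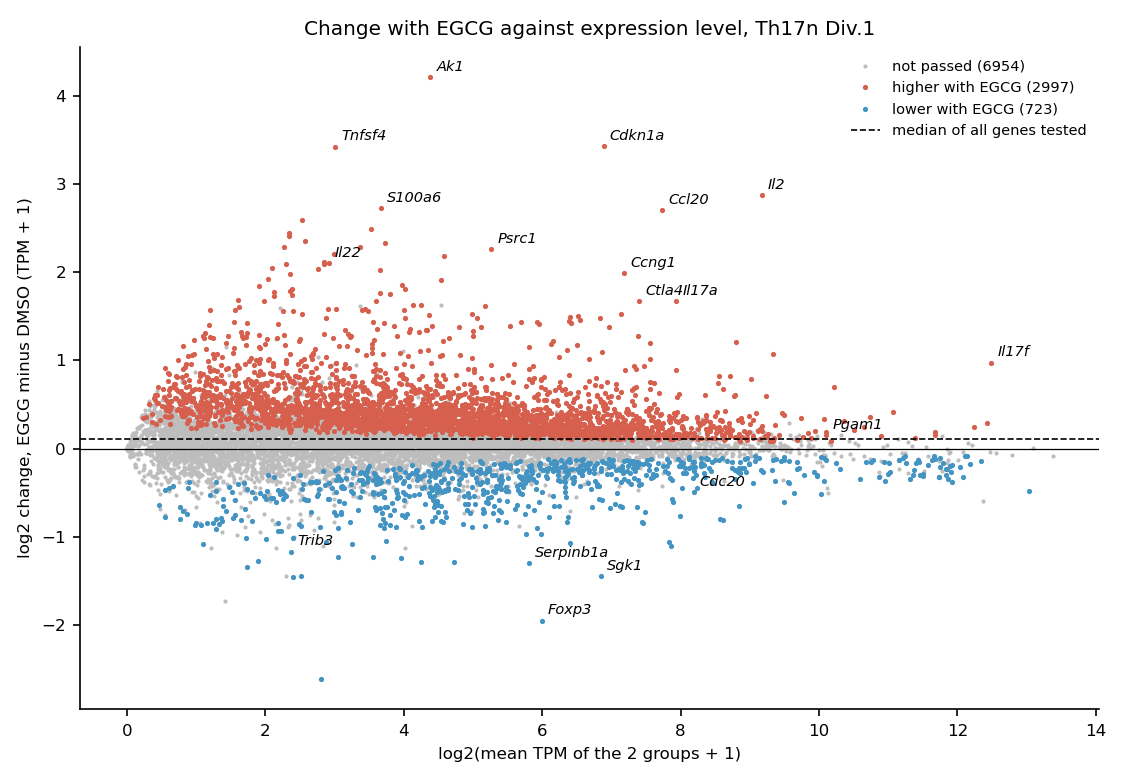
Log2 change of each of the 10674 tested genes (vertical axis, EGCG minus DMSO on log2 of TPM + 1) against its level (horizontal axis, log2 of the mean TPM of the groups + 1), with genes that passed an adjusted p of 0.05 in red (2997 higher) or blue (723 lower). The cloud is centred on the dashed median of 0.11, and Ak1, Cdkn1a, Tnfsf4 and Il2 stand at 2.87 or above.

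Most p53 target genes rose with EGCG. Of 40 listed genes 36 were in the table and 35 could be tested, and 28 of the 35 rose, 1 fell and 6 did not pass, where 28.1% of all genes were higher and 6.77% lower, with a median change of 0.75 beside 0.11 for all genes. After rescaling 26 rose and 1 fell, where 15.4% of all genes were higher and 15.7% lower. Cdkn1a, at chr17:29090976-29100727, plus strand on mm10, encodes p21, the inhibitor of cyclin-dependent kinases through which p53 stops the cell cycle. It stood at 21.9, 22.3, 18.2 and 14.6 TPM in DMSO wells E1 to E4 and at 209.7, 217, 251, 180.4 and 219 TPM in EGCG wells G1 to G5, a change of 3.43 ± 0.18 (adjusted p = 6.69e-25). Every EGCG library was higher than every DMSO library, by a wide margin. Ccng1, which encodes cyclin G1, stood at 58.8, 58.6, 59.7 and 53.6 TPM with DMSO and at 214, 244, 252, 244 and 208 TPM with EGCG (1.99 ± 0.11, adjusted p = 8.20e-24). Psrc1, a microtubule-binding protein, stood at 12.5, 13.7, 10.8 and 11.8 TPM with DMSO and 53.02, 64.7, 66.8, 63.9 and 63.9 TPM with EGCG (2.27 ± 0.15, adjusted p = 3.81e-20). Zmat3, an RNA-binding protein, lay between 4.37 and 4.92 TPM with DMSO and between 12.6 and 20.8 TPM with EGCG (1.76 ± 0.11, adjusted p = 1.79e-20). For these genes too the groups did not overlap, and EGCG well G1 was the lowest of its group for Zmat3 and Psrc1.

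Other members with changes over 1 included the stress kinase gene Plk2 (2.29), the AKT inhibitor Phlda3 (1.86), the leucine sensor Sesn2 (1.81), the translesion DNA polymerase Polk (1.27) and the death genes Pmaip1, which encodes NOXA (1.56), and Fas, a death receptor (1.38). Bax, whose product opens the outer mitochondrial membrane, stood at 291, 269, 282 and 265 TPM with DMSO and 425, 468, 481, 488 and 468 TPM with EGCG, a smaller change of 0.75 ± 0.07 at a high level (adjusted p = 2.64e-14). The death receptor gene Tnfrsf10b rose by 0.96 ± 0.08. Mdm2, which encodes the ligase that degrades p53 and is itself a target, rose by 0.52 ± 0.17 (adjusted p = 0.0117), but not after rescaling (0.39, adjusted p = 0.0655) nor without well E1 (adjusted p = 0.0916). Ckap2, a spindle protein and the 1 member that fell, changed by -0.24 ± 0.08 (adjusted p = 0.0114, and 0.0782 without well E1). Trp53, which encodes p53 itself, stood at 276 to 293 TPM with DMSO and 258 to 282 TPM with EGCG, a change of -0.10 ± 0.04 (adjusted p = 0.0439). It missed the threshold when any of wells E1, E3, E4, G2, G3 or G4 was left out (adjusted p = 0.0850 to 0.108). Among the 27 genes of the apoptosis and survival list 12 rose and 1 fell, beside 28.1% and 6.77% of all genes. They included Apaf1, the scaffold of the apoptosome (0.97 ± 0.10), and the survival genes Bcl2 (0.70 ± 0.13) and Bcl2a1b (1.197 ± 0.10). Bcl2a1b has near-identical copies that share its reads.

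A promoter window of 300 bases, 250 before to 50 after the RefSeq transcription start on GRCm38.p6 (mm10), was available for 27 of the 35 tested p53 targets. A p53 response element by its textbook consensus, 2 decamers with at most 13 bases between them, was found in 1 of the 27 windows (3.70%) and in 20 of 27025 genes with a window (0.0740%). The match is in the window of the upstream start of Cdkn1a, which is shown because this gene led the list. The 2 decamers of the strict match are in capitals, with a spacer of 12 bases between them. Directly after the second decamer stand the bases tgacatgttc, which miss the consensus only at their first base and so are not marked. Which stretch p53 binds was not tested.
Cdkn1a, chr17:29090729-29091028, plus strand: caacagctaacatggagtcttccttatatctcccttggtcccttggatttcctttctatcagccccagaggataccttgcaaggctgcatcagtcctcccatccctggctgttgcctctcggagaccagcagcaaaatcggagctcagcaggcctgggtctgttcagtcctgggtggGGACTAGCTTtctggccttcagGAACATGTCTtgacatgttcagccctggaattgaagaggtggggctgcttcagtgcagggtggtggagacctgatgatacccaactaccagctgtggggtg

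Many genes of G2 phase and mitosis fell with EGCG, by small amounts. Of 42 tested 18 fell and 3 rose, against 6.77% and 28.1% of all genes, with a median change of -0.16. After rescaling 29 fell and 0 rose, with a median of -0.29, where 15.7% of all genes were lower and 15.4% higher. Cdc20, the activator of the anaphase-promoting complex, stood at 346, 338, 337 and 338 TPM with DMSO and at 241, 253, 205, 264 and 246 TPM with EGCG (-0.49 ± 0.07, adjusted p = 1.59e-08). The DMSO libraries lay within 9 TPM of each other and all above the EGCG libraries. Plk1, a mitotic kinase, stood at 188, 176, 171 and 169 TPM with DMSO and 138, 128, 115, 147 and 140.2 TPM with EGCG (-0.40 ± 0.07, adjusted p = 3.40e-06). Ccnb2, which encodes cyclin B2, lay between 179 and 198 TPM with DMSO and between 129 and 162 TPM with EGCG (-0.35 ± 0.06, adjusted p = 1.46e-06). Ube2c, the ubiquitin-conjugating enzyme of the anaphase-promoting complex, lay between 848 and 870.3 TPM with DMSO and between 564 and 758 TPM with EGCG (-0.39 ± 0.07). The groups did not overlap for any of these. Ccnb1, cyclin B1, fell by less (-0.25 ± 0.07), as did the proliferation marker Mki67 (-0.22 ± 0.06). The 3 members that rose were the securin gene Pttg1 (0.27), Ect2 (0.26) and the checkpoint gene Mad2l1 (0.19), and none of the 3 passed after rescaling. Ect2 missed the threshold when any of the 9 libraries but well E2 was left out (adjusted p = 0.0503 to 0.166).

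Promoters of mitotic genes often carry the cell cycle homology element TTTGAA with CCAAT boxes upstream, the pair through which the DREAM and MuvB complexes and NF-Y act. TTTGAA, searched on both strands, was found in 24 of the 34 G2 and M phase genes with a window (70.6%) and in 5466 of 27025 genes with one (20.2%). CCAAT, on both strands, was found in 27 of 34 (79.4%) and in 41.1% of genes, and both motifs together in 21 of 34 (61.8%) and in 7.97% of genes. The motifs did not overlap each other in the windows shown. Among genes that fell with EGCG 10 of 14 held TTTGAA, and among the others 14 of 20. CCAAT was held by 13 of 14 and 14 of 20. A match describes letters in a window and is not evidence of binding in these cells. The windows of 3 of the genes with the clearest decrease are shown to let their motifs, in capitals, be compared.
Cdc20, chr4:118437294-118437593, minus strand: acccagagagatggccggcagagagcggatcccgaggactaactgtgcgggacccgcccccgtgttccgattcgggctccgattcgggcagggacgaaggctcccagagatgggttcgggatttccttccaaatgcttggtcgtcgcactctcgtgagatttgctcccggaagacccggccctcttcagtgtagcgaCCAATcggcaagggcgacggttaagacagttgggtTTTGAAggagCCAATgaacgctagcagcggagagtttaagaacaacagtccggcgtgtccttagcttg
Plk1, chr7:122159185-122159484, plus strand: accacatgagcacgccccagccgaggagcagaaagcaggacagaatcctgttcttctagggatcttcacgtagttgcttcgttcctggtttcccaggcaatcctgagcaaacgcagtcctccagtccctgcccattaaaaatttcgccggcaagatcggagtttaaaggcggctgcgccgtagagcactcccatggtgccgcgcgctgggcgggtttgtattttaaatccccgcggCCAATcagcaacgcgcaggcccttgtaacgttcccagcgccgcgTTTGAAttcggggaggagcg
Ccnb2, chr9:70421505-70421804, minus strand: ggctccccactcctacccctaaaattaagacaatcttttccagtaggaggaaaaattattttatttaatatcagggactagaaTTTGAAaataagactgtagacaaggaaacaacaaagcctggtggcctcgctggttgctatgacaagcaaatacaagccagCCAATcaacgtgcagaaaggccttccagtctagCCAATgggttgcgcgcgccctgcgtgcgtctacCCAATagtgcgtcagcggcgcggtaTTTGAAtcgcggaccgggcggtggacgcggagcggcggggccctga

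Genes of G1 and S phase went both ways: of 46 tested 12 rose and 6 fell, with a median of 0.03, and 6 rose and 18 fell after rescaling. The share that rose was near that of all genes (28.1%, and 15.4% after rescaling). Of all genes 6.77% were lower, and 15.7% after rescaling. Mcm7, a subunit of the replicative helicase, stood at 376, 348, 364 and 359.7 TPM with DMSO and 299.7, 276, 279.7, 284 and 302 TPM with EGCG (-0.33 ± 0.04, adjusted p = 8.70e-11), without overlap. The G1 genes Cdk6 (0.58 ± 0.05) and Ccnd2, which encodes cyclin D2 (0.63 ± 0.08), rose. Of 24 clustered histone genes, whose RNA peaks in S phase and mostly lacks a polyA tail, 6 fell and 1 rose, with a median of -0.45. Hist1h2bj stood at 90.04, 70.6, 71.8 and 81.3 TPM with DMSO and 38.6, 36.3, 46.5, 37.9 and 49.7 TPM with EGCG (-0.90 ± 0.14, adjusted p = 4.72e-07). Hist1h4c (-1.24 ± 0.31), Hist1h2ac (-1.23 ± 0.44) and Hist1h2ah (-1.23 ± 0.36) were among the 12 largest decreases described below, but Hist1h2ac missed the threshold without well E3, G4 or G5 (adjusted p = 0.0548 to 0.121). Hist1h2bc, the 1 that rose, lay between 0.699 and 1.64 TPM with DMSO and between 1.16 and 5.81 TPM with EGCG (1.03 ± 0.37, adjusted p = 0.0250), with overlap, and missed the threshold without well E4, G4 or G5 (adjusted p = 0.0568 to 0.0812). Histone genes are near-identical copies, and polyA capture takes up an uneven share of their RNA, so single values are uncertain.

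The main Th17 effector cytokines, IL-17A and IL-17F, rose at the RNA level. Of 12 listed cytokine genes 11 could be tested, and 6 rose, 0 fell and 5 did not pass, with a median of 0.75. After rescaling 6 rose and 0 fell as well. Of those that did not pass, Il3 was at 0 TPM in every library of both groups. It was tested because other libraries of the series reached the filter. Among all genes 28.1% were higher and 6.77% lower, and 15.4% and 15.7% after rescaling. Il17a (mm10 chr1:20730905-20734496, plus strand) stood at 90.03, 147, 166 and 77.1 TPM in wells E1 to E4 and at 445, 334, 361, 355 and 343 TPM in wells G1 to G5, a change of 1.67 ± 0.47 (adjusted p = 0.00362). The groups did not overlap, and well G1 was the highest. Il17f (chr1:20777146-20790617, minus strand), its neighbour on the chromosome and the more abundant of the pair, stood at 3777, 4010.2, 4257 and 3426 TPM with DMSO and at 7868, 8147, 6985, 7016 and 7969 TPM with EGCG (0.98 ± 0.21, adjusted p = 1.31e-04). The lowest EGCG library was above the highest DMSO library. Ccl20, the chemokine ligand of CCR6, stood at 52.1, 54.3, 100.1 and 31.3 TPM with DMSO and 309, 292, 432, 413 and 381 TPM with EGCG (2.702 ± 0.36, adjusted p = 7.66e-09), again without overlap. Il21, a cytokine that sustains Th17 cells and B cell help, lay between 31.3 and 36.8 TPM with DMSO and between 65.7 and 90.8 TPM with EGCG (1.15 ± 0.14, adjusted p = 6.49e-10). Tnf lay between 119 and 179 TPM with DMSO and between 225 and 257 TPM with EGCG (0.75 ± 0.12, adjusted p = 1.58e-06). Il22, which acts on epithelia, was low: 1.23, 0.374, 7.36 and 0.303 TPM with DMSO and 23.3, 8.25, 5.004, 11.1 and 6.18 TPM with EGCG. It passed (2.103 ± 0.44, adjusted p = 8.94e-05) although well E3 lay above 2 EGCG wells, and with well A4 included the change was 0.64 (adjusted p = 0.499).

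IL-9 and IL-10, the cytokines of non-pathogenic cells, did not pass. Il9 stood at 1457, 1482, 1874 and 1177 TPM with DMSO and 1709, 1300.4, 1106, 1613 and 1164 TPM with EGCG, a value of -0.12 ± 0.39 with a wide error, and Il10 at 16.03 to 30.98 and 19.3 to 31.7 TPM (0.18 ± 0.23). Of 8 genes of the non-pathogenic signature, Cd5l rose and Ikzf3 fell. Cd5l encodes a secreted protein tied to lipid metabolism in Th17 cells, and it stood at 7.12, 8.599, 14.6 and 6.09 TPM with DMSO and 34.9, 30.7, 35.5, 32.3 and 43.9 TPM with EGCG (1.91 ± 0.30, adjusted p = 4.39e-07). Ikzf3, the transcription factor Aiolos, lay between 41.7 and 48.1 TPM with DMSO and between 27.4 and 33.8 TPM with EGCG (-0.55 ± 0.09), and with well A4 included the value was -0.05 (adjusted p = 0.877). Of 16 tested genes of the pathogenic signature, 4 rose and 0 fell: Il22, Casp1 (1.398 ± 0.18, at most 2.95 TPM), Stat4 (0.79 ± 0.12) and Lag3 (0.55 ± 0.14). This share lay near the 28.1% of all genes that were higher. After rescaling 4 rose and 1 fell, where 15.4% of all genes were higher and 15.7% lower. Among surface genes of Th17n cells, Pdpn, which encodes podoplanin, stood at 48.8, 34.7, 52.8 and 40.3 TPM with DMSO and 119, 120.1, 118, 123 and 125.8 TPM with EGCG (1.45 ± 0.18, adjusted p = 1.10e-09), with the EGCG libraries close together and all above the DMSO libraries. Aqp3, a glycerol channel, stood at 474, 435, 399.9 and 456 and 383, 322, 295, 322 and 401 TPM and did not pass (-0.36 ± 0.15, adjusted p = 0.0502), but it passed after rescaling (-0.49, adjusted p = 0.00597). It also passed with the plate column as a replicate block (-0.37, adjusted p = 0.0403), with the groups fitted alone (adjusted p = 0.0125) and without well E3, G1 or G5 (adjusted p = 0.0311 to 0.0470).

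Among 20 tested transcription factors and receptors that define Th17 cells, 5 rose, 2 fell and 13 did not pass, with a median of 0.21 beside 0.75 for the cytokines. These shares lay near those of all genes (28.1% higher and 6.77% lower). The factors Rora (0.46 ± 0.30), Maf (0.15 ± 0.13), Ahr (0.05 ± 0.12) and the chemokine receptor Ccr6 (0.21 ± 0.25) did not pass. Il23r, the receptor of the cytokine that drives pathogenic cells, stood at 1.32 to 3.13 TPM with DMSO and 2.03 to 3.88 TPM with EGCG (0.41 ± 0.20, adjusted p = 0.103, and 0.0241 without well E4). Those that rose were the membrane protein genes Tmem176a (0.90 ± 0.27) and Tmem176b (0.80 ± 0.24), the IkB family regulator Nfkbiz (0.76 ± 0.11), Runx1 (0.35 ± 0.07) and the AP-1 factor Batf (0.32 ± 0.07). Tmem176b missed the threshold without well E2 (adjusted p = 0.0519) or E4 (adjusted p = 0.0505), and with a pseudocount of 0.1 neither of the pair passed (adjusted p = 0.0877 and 0.0849). Sgk1, a salt-sensing kinase that stabilises Th17 cells, fell. It stood at 197, 143, 121 and 209.7 TPM with DMSO and 66.5, 53.4, 37.2, 81.6 and 68.3 TPM with EGCG (-1.45 ± 0.17, adjusted p = 3.87e-10), without overlap. Its value was -0.57 (adjusted p = 0.212) with well A4 included. The other that fell was the IL-6 receptor gene Il6ra (-0.38 ± 0.12). Of 7 tested genes of the aryl hydrocarbon receptor, which Ahr encodes, the 3 target genes Cyp1b1 (1.42 to 1.95 against 9.93 to 11.6 TPM, 2.097 ± 0.23), Cyp1a1 (1.48 ± 0.38) and Tiparp (1.35 ± 0.18) rose and 0 fell. Of 8 tested Th1 genes 5 rose and 0 fell, namely Il18rap (0.95), Il12rb2 (0.89 ± 0.16), Stat4, Il18r1 (0.70) and Cxcr3 (0.63), while the Th1 factor Tbx21 did not pass (0.12 ± 0.19). Ifng was too low to test, at no more than 0.0861 TPM in any of the 9 libraries. The inhibitors of cytokine signalling Socs3 (143 to 169 against 83.5 to 109 TPM, -0.67 ± 0.07) and Socs2 (-0.83 ± 0.14) fell. With well A4 included Socs2 stood at -0.37 (adjusted p = 0.186).

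**Figure D2:**
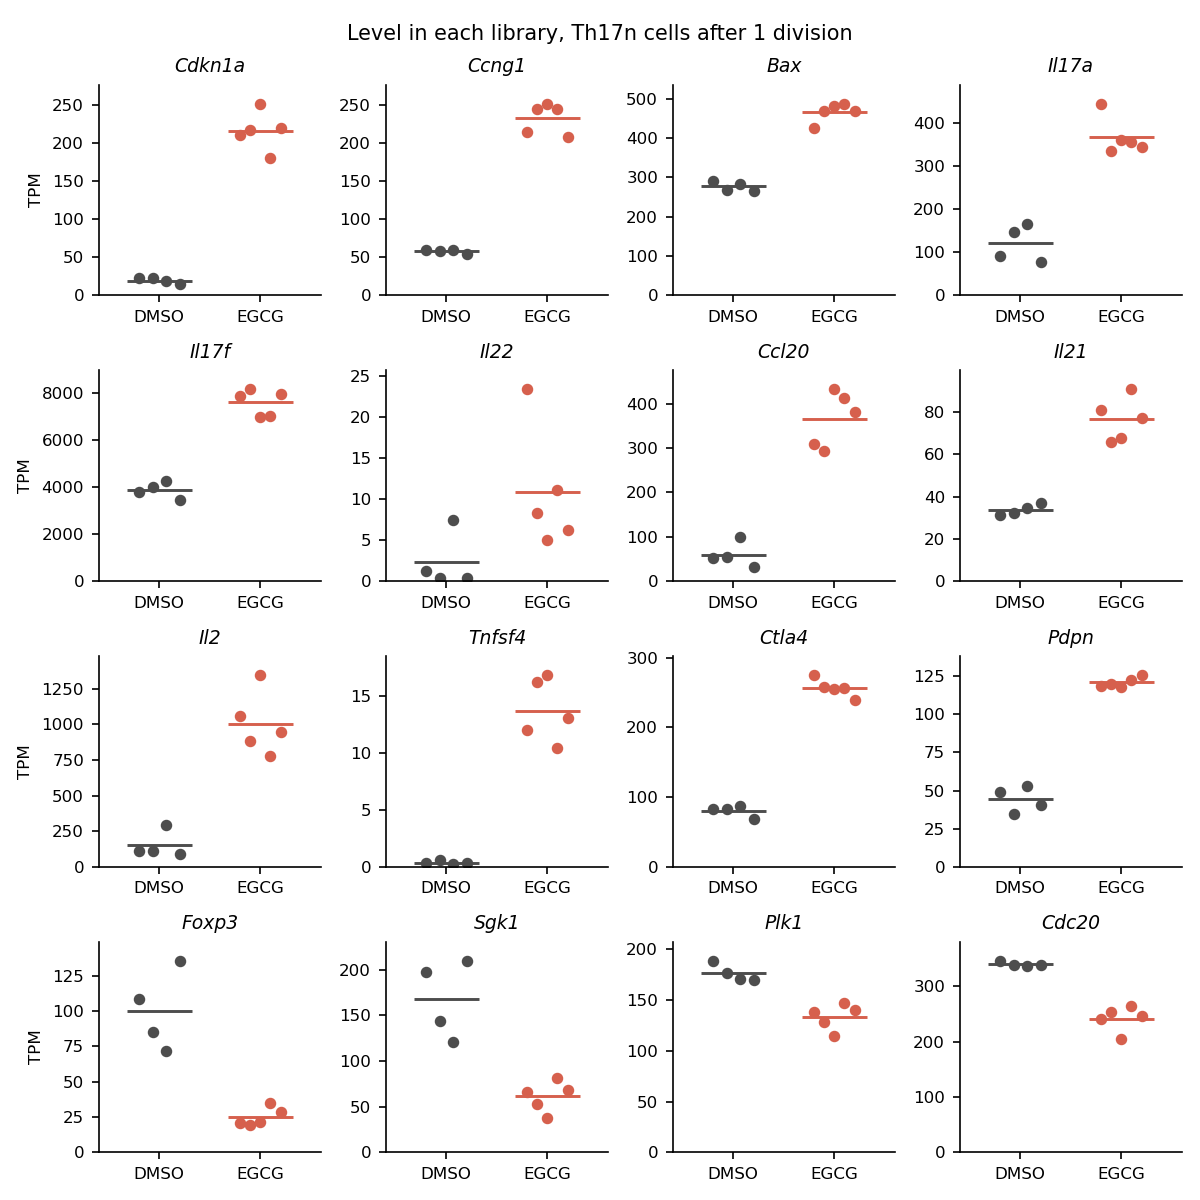
TPM (vertical axis of each panel, from 0) of 16 genes in each of the 4 DMSO and 5 EGCG libraries of Th17n cells after 1 division (points), with the mean of each group as a line. Il22 is the 1 gene of the 16 whose groups overlap, and Foxp3, Sgk1, Plk1 and Cdc20 are those with lower levels under EGCG.

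Foxp3, which encodes the defining factor of regulatory T cells and is also induced by TGFb, showed the largest decrease among genes with no overlap and a higher-group mean of 5 TPM or more. It lies at mm10 chrX:7573644-7595245, plus strand, and it stood at 109, 85.2, 71.5 and 136 TPM with DMSO and at 20.6, 19.4, 21.7, 34.7 and 28.8 TPM with EGCG (-1.95 ± 0.17, adjusted p = 5.89e-15). The highest EGCG library was below the lowest DMSO library. With well A4 included, which itself had almost no Foxp3, the change was -0.72 (adjusted p = 0.236). Of the 14 tested regulatory T cell genes 5 were lower and 5 higher, both before and after rescaling, with a median of 0.11. Among all genes 6.77% were lower and 28.1% higher, and 15.7% and 15.4% after rescaling. Lower beside Foxp3 were Lrrc32, which presents latent TGFb (2.302 to 4.08 against 0.961 to 2.26 TPM, -0.82 ± 0.21), the ectonucleotidase gene Entpd1 (-0.57 ± 0.15), Gpr83 (-0.53 ± 0.16, adjusted p = 0.00784, and 0.0644 without well E4) and Ikzf4 (-0.49 ± 0.15). Of these Entpd1 (adjusted p = 0.147) and Ikzf4 (adjusted p = 0.0524) did not pass with a pseudocount of 0.1. Higher were Ctla4, an inhibitory receptor (83.2, 83.3, 86.8 and 67.8 TPM with DMSO and 275, 258, 255, 256 and 239.8 TPM with EGCG, 1.67 ± 0.12, adjusted p = 1.02e-18), and Tnfrsf18, which encodes GITR (1.1003 ± 0.08). Ebi3 (0.85 ± 0.22), Nrp1 (0.65 ± 0.17) and the IL-2 receptor chain Il2ra (0.38 ± 0.06) were the other 3. The 3 TGFb pathway genes that rose of 15 tested, Pmepa1 (0.43), Skil (0.34) and Ski (0.22), had small changes. Ski missed the threshold without well E2 or G5 (adjusted p = 0.0885 and 0.0510), and after rescaling 1 of the 15 was higher and 3 were lower.

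Most genes that T cell receptor signals induce were higher with EGCG: 17 of 25 tested rose and 1 fell, with a median of 0.62. After rescaling 16 rose and 2 fell. Among all genes 28.1% were higher and 6.77% lower, and 15.4% and 15.7% after rescaling. Il2, the T cell growth factor, stood at 107, 112, 292 and 91.1 TPM with DMSO and at 1061, 882, 1346, 776 and 944 TPM with EGCG (2.87 ± 0.22, adjusted p = 1.17e-17). DMSO well E3 was the highest of its group, and all EGCG libraries were above it. The early activation marker Cd69 lay between 45.3 and 60.2 TPM with DMSO and between 99.3 and 146 TPM with EGCG (1.18 ± 0.10). The adhesion receptor gene Cd44 lay between 14.3 and 22.02 TPM with DMSO and between 41.4 and 59.5 TPM with EGCG (1.38 ± 0.14). Myc, the 1 member that fell, changed by -0.22 ± 0.07 (adjusted p = 0.0122, and 0.0788 without well E1 or 0.0603 without well G3). Among the costimulatory TNF family, 11 of 22 tested rose and 4 fell, with a median of 0.74. Tnfsf4, which encodes OX40 ligand, was almost silent with DMSO, at 0.329, 0.570, 0.251 and 0.281 TPM, and stood at 12.004, 16.3, 16.9, 10.4 and 13.1 TPM with EGCG (3.42 ± 0.22, adjusted p = 3.03e-20). Its receptor gene Tnfrsf4 lay between 211 and 335 TPM with DMSO and between 572 and 661 TPM with EGCG (1.204 ± 0.09), and the ligand genes Cd70 (1.84 ± 0.32), Tnfsf8 (1.58 ± 0.17) and Tnfsf9 (1.57 ± 0.15) rose too. Tnfrsf8, which encodes CD30 (-0.67 ± 0.15), Ltb (-0.44 ± 0.14), Tnfrsf13b (-0.36 ± 0.09) and Tnfrsf1b (-0.24 ± 0.07) fell.

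Of 10 tested inhibitory receptor genes 8 rose and 0 fell, beside 28.1% and 6.77% of all genes (15.4% and 15.7% after rescaling). Their median, 0.87, was the highest of the lists described here. Beside Ctla4 they included Cd200 (31.8 to 60.5 against 104 to 138 TPM, 1.49 ± 0.14), Btla (11.6 to 15.3 against 30.7 to 38.2 TPM, 1.26 ± 0.11) and Pdcd1, which encodes PD-1 (94.8 to 128 against 194 to 223 TPM, 0.94 ± 0.10). None of these 4 genes overlapped between the groups. Genes of naive and quiescent T cells did not move as a block: 11 of 21 tested rose and 3 fell, and 9 rose and 5 fell after rescaling. Bach2, a repressor that restrains effector genes, stood at 41.3, 38.5, 40.1 and 36.8 TPM with DMSO and 74.7, 77.5, 78.6, 72.5 and 77.2 TPM with EGCG (0.94 ± 0.07). Id3 (1.12 ± 0.12), the quiescence gene Slfn2 (0.93 ± 0.06) and the IL-7 receptor gene Il7r (1.14 ± 0.16, at most 3.803 TPM) rose too. Klf2, a factor of T cell quiescence and migration, was at 1.11 to 3.34 TPM with DMSO and 0.0572 to 1.49 TPM with EGCG (-0.79 ± 0.23, adjusted p = 0.00454), and with well A4 included it passed no longer (-0.52, adjusted p = 0.0842). Ccr7, a lymph node homing receptor, changed by -0.23 ± 0.09 (adjusted p = 0.0415) and missed the threshold without any of wells E1, E4 and G1 to G4 (adjusted p = 0.0504 to 0.178).

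The glycolysis, cholesterol synthesis and fatty acid oxidation lists had medians between 0.17 and 0.22, beside 0.11 for all genes. Pgam1, which encodes the mutase that EGCG has been used to inhibit, stood at 1015, 1036, 1098 and 1018 TPM with DMSO and 1189, 1125, 1124, 1189.8 and 1165 TPM with EGCG (0.15 ± 0.05, adjusted p = 0.00763). After rescaling it was at 0.02 (adjusted p = 0.645) and did not pass. Of 23 tested glycolysis genes 9 rose and 0 fell, with a median of 0.18, and 5 rose and 1 fell after rescaling. Among all genes 28.1% were higher and 6.77% lower, and 15.4% and 15.7% after rescaling. The lactate dehydrogenase gene Ldhb rose most, and lay between 38.5 and 50.1 TPM with DMSO and between 73.5 and 86.9 TPM with EGCG (0.78 ± 0.09). It was followed by hexokinase 2, Hk2 (0.44 ± 0.09), and the 2 enzyme genes Tpi1 (0.33 ± 0.07) and Pfkl (0.33 ± 0.08). With well A4 included Hk2 (0.20, adjusted p = 0.189), Tpi1 (0.16, adjusted p = 0.159) and Pfkl (0.14, adjusted p = 0.307) did not pass. G6pdx, the glucose-6-phosphate dehydrogenase gene, stood at 48.3 to 54.1 TPM with DMSO and 46.96 to 56.3 TPM with EGCG (0.00 ± 0.06). Of the 11 pentose phosphate genes Rpe rose (0.41) and Tkt (-0.15) and Prps1 (-0.28) fell, Tkt not without well E1 (adjusted p = 0.05001) or G2 (adjusted p = 0.0574). Cholesterol synthesis genes rose in 11 of 24 tested and fell in 0, with a median of 0.17 (7 and 2 after rescaling). Hmgcs1, a synthase of the early pathway, lay between 33.1 and 55.6 TPM with DMSO and between 65.9 and 75.98 TPM with EGCG (0.61 ± 0.11), and Idi1 (0.63 ± 0.13) and Cyp51 (0.53 ± 0.07) rose by like amounts. Abcg1, a cholesterol exporter, fell, with 13.8 to 20.3 TPM with DMSO and 6.57 to 8.43 TPM with EGCG (-1.05 ± 0.13, adjusted p = 4.98e-10). Fatty acid oxidation genes rose in 13 of 21 tested and fell in 0, with a median of 0.22 (5 and 0 after rescaling), led by Decr1 (0.71 ± 0.10) and the carnitine carrier Slc25a20 (0.46 ± 0.07).

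Oxidative phosphorylation subunits, with 9 of 36 higher and 4 lower, lay near the share of all genes (28.1% and 6.77%). After rescaling 15.4% of all genes were higher and 15.7% lower. Of 17 genes of the endoplasmic reticulum stress list 11 rose and 0 fell, the chaperone genes Pdia3 (0.29 ± 0.04) and Calr (0.31 ± 0.06) among them, and 4 rose and 1 fell after rescaling. Targets of ATF4, the factor of the amino acid response, were lower in 9 of 27 tested and higher in 3. Trib3, a pseudokinase, stood at 4.44, 5.21, 7.102 and 8.12 TPM with DMSO and 2.51, 1.67, 2.21, 2.26 and 2.16 TPM with EGCG (-1.17 ± 0.28, adjusted p = 8.10e-04). The serine synthesis gene Phgdh (-0.34 ± 0.06) and Shmt2 (-0.44 ± 0.05), the latter from the list of serine and one-carbon genes, fell as well. Chac1, a glutathione-degrading enzyme, was spread over 0.468, 3.15, 4.73 and 7.72 TPM with DMSO and stood at 0.476 to 0.816 TPM with EGCG (-1.34 ± 0.43, adjusted p = 0.0115) and missed the threshold without well E4 (adjusted p = 0.0970). The 3 that rose included Sesn2, which is a p53 target as well, with Ddit4 (0.81) and Slc1a5 (0.22, and 0.09 after rescaling, adjusted p = 0.150). Aminoacyl-tRNA synthetases fell in 6 of 20 and rose in 3, and 13 and 0 after rescaling. Of 31 genes of ribosome biogenesis and Myc 7 fell and 3 rose, with a median of -0.02 (17 and 1 after rescaling). Fbl, the fibrillarin gene, stood at 148, 198, 238 and 213 TPM with DMSO and 74.6, 102, 151, 145 and 169.7 TPM with EGCG (-0.67 ± 0.17). Srm, spermidine synthase, stood at 267, 508, 617 and 578 and 124, 225, 349.6, 357 and 390.1 TPM (-0.81 ± 0.28, adjusted p = 0.0170). For both, the wells of plate column 1, E1 and G1, were the lowest of their groups and the groups overlapped. Srm missed the threshold without well E3, E4 or G1 (adjusted p = 0.0649 to 0.128). Tfrc, the transferrin receptor through which cells take up iron, lay between 108 and 142 TPM with DMSO and between 234 and 273 TPM with EGCG (1.01 ± 0.08, adjusted p = 9.36e-16). Of 13 S100, galectin and annexin genes 10 rose and 0 fell, with a median of 0.43. S100a6, a small calcium-binding protein, stood at 3.68, 2.41, 1.83 and 1.64 TPM with DMSO and 20.8, 20.5, 26.95, 18.7 and 18.4 TPM with EGCG (2.73 ± 0.22, adjusted p = 9.99e-17). S100a4 was at 0 to 1.59 and 2.93 to 6.94 TPM (1.92 ± 0.28), and Anxa2, a membrane-binding annexin, at 53.4 to 75.96 and 142 to 185 TPM (1.48 ± 0.14).

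**Figure D3:**
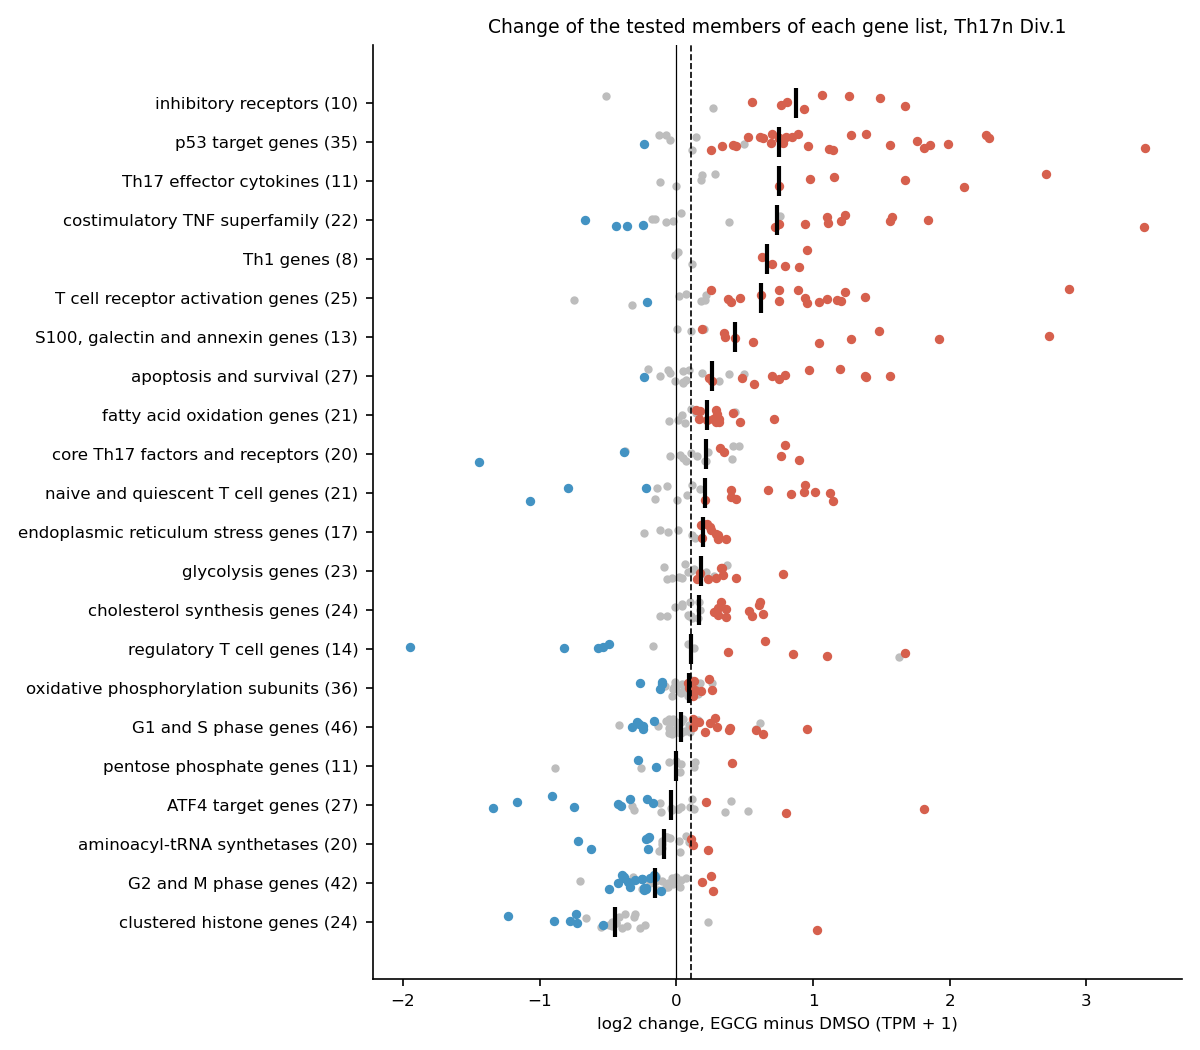
Log2 change (horizontal axis, EGCG minus DMSO on log2 of TPM + 1) of each tested member of 22 gene lists, with the number tested in brackets, members that passed an adjusted p of 0.05 in red (higher) or blue (lower), others in grey, and each list's median as a black bar. The dashed line is the median of all tested genes, 0.11, and the medians run from -0.45 for clustered histone genes to 0.87 for inhibitory receptors.

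The genes with the largest changes were taken by a rule: called, without overlap between the groups, and with a higher-group mean of 5 TPM or more. The largest increase was that of Ak1, adenylate kinase 1, which interconverts adenine nucleotides. It stood at 2.24, 0.513, 1.48 and 0.592 TPM with DMSO and at 33.1, 43.99, 50.3, 31.4 and 33.8 TPM with EGCG (4.21 ± 0.26, adjusted p = 3.35e-21; mm10 chr2:32621758-32635058, plus strand). Other genes were low with DMSO and clearly present with EGCG. The protease inhibitor gene Serpine2 rose from 0.476, 0.199, 0.708 and 0.950 to 5.88, 6.6997, 15.2, 6.63 and 10.4 TPM (2.597 ± 0.27). Ulbp1, a stress ligand of the NKG2D receptor, rose from 1.21, 0.751, 0.778 and 0.946 to 7.15, 6.43, 11.96, 8.23 and 11.1 TPM (2.35 ± 0.16). The list also held Nrn1, which encodes neuritin (0.223 to 0.849 against 6.44 to 8.88 TPM, 2.45 ± 0.22), and Penk, the enkephalin precursor gene (0 to 1.604 against 2.36 to 15.6 TPM, 2.41 ± 0.44). Nptn and Cox6b2 completed the 12 largest increases. Nptn, an adhesion molecule of the immunoglobulin family, was uneven among the DMSO libraries, at 0.688, 6.85, 0.00716 and 7.34 TPM, and stood at 15.9 to 19.5 TPM with EGCG (2.49 ± 0.49). Cox6b2 lay between 0 and 2.21 TPM with DMSO and between 4.46 and 10.04 TPM with EGCG (2.29 ± 0.34). The 12 largest decreases, after Foxp3 and Sgk1, included Serpinb1a, a protease inhibitor of the serpin family, and the membrane protein gene Emp1. Serpinb1a stood at 85.3, 71.1, 52.1 and 105 TPM with DMSO and 30.5, 32.2, 18.8, 42.8 and 32.2 TPM with EGCG (-1.297 ± 0.22, adjusted p = 2.88e-06) and Emp1 at 29.7 to 45.4 and 11.2 to 18.1 TPM (-1.29 ± 0.15). With well A4 included Serpinb1a was at -0.18 (adjusted p = 0.794) and Emp1 at -0.25 (adjusted p = 0.678). Beside Abcg1, Trib3 and the 3 histone genes, the largest decreases also included Ly6k (-1.08 ± 0.28) and Mrgbp (-1.06 ± 0.33), at 9.35 to 13.3 against 4.18 to 7.38 TPM and 7.21 to 10.7 against 3.04 to 5.67 TPM.

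Library A4, when put back among the DMSO libraries by its label, took the number of called genes from 3720 to 3218, with 2641 higher and 577 lower. Beside the genes for which the value is given above, these no longer passed with it: Ebi3 (0.47), Lrrc32 (-0.40), Gpr83 (-0.17), Ikzf4 (-0.23), Entpd1 (-0.10), Il6ra (-0.22), Batf (0.10), Nfkbiz (0.26), Stat4 (0.42), Il12rb2 (0.13), Cxcr3 (0.07), Lag3 (0.11), Pgam1 (0.04), Ltb (-0.10), Tnfrsf13b (0.43), Tnfrsf1b (-0.02), Ly6k (-0.58), Hist1h2ac (-1.01), Hist1h2bc (0.73), Ccr7 (-0.02), Prps1 (-0.17), Ect2 (0.22), Mad2l1 (0.14), Slc1a5 (0.08), Ccr8 (-0.12), Gbp4 (0.35) and Gbp5 (0.24), with adjusted p from 0.0552 to 0.915. In the other direction Maf (0.97, adjusted p = 0.0117), Ahr (0.58, adjusted p = 0.0328), Ccr6 (0.84, adjusted p = 0.0406) and Il10 (0.93, adjusted p = 0.0285) passed with it only. The Foxp3 differences given below did not pass with it (0.43, adjusted p = 0.732 for unsorted cells, -0.56, adjusted p = 0.668 for Th17p and -0.60, adjusted p = 0.590 for DHEA), and neither did the Hist1h4c difference from unsorted cells (-1.19, adjusted p = 0.0508). Cdkn1a (3.34), Il17a (1.96), Il17f (1.19), Ccl20 (3.86), Il2 (2.23), Tnfsf4 (3.34), Ctla4 (1.81), Pdpn (2.55) and Cdc20 (-0.47) passed with it as well.

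The response was then set beside that of unsorted Th17n cells given EGCG, which shares no library with it. The labels do not say whether sorted and unsorted cells came from the same cultures or mice. The responses may therefore not be independent, and unsorted cells may include cells that had divided once. The difference between the responses was tested directly, and 1420 genes passed (13.3%), with 1150 showing a more positive change after 1 division (10.8%) and 270 a more negative one (2.53%). After rescaling these were 784 (7.34%) and 714 (6.69%), so the split, 81.0% against 52.3%, rests on the scale. Of the 183 genes that rose by at least 1 after 1 division, 147 also rose in unsorted cells (80.3%, and 6.34% of the 2319 genes higher there, which are 21.7% of genes tested), and 52 differed between the responses. For Cdkn1a the difference did not pass: the change was 3.43 ± 0.18 after 1 division and 3.45 ± 0.17 in unsorted cells (difference -0.02 ± 0.24, adjusted p = 0.971). Il17f changed by 0.98 ± 0.21 after 1 division and by -0.07 ± 0.20 in unsorted cells (difference 1.04 ± 0.29, adjusted p = 0.00812). Il17a was at 1.67 and -0.05, a difference of 1.72 ± 0.64 that did not pass (adjusted p = 0.0633, and 0.0497 without well E3). This difference passed with the groups fitted alone (adjusted p = 0.00221) and with well A4 included (2.01, adjusted p = 0.0289). Ccl20 (2.702 ± 0.36 against 0.82 ± 0.34, adjusted p of the difference = 0.00576), Cd5l (1.91 ± 0.30 against 0.23 ± 0.28, adjusted p = 0.00296) and Pdpn (1.45 ± 0.18 against 0.17 ± 0.17, adjusted p = 1.94e-04) had a more positive change after 1 division, and so did Ctla4 (1.67 against 0.99, adjusted p = 0.00247). With a pseudocount of 0.1 in place of 1 the differences of Ccl20 (adjusted p = 0.142), Pdpn (0.214) and Foxp3 (0.457) did not pass. Foxp3 fell in both, by more after 1 division (-1.95 against -1.16, adjusted p of the difference = 0.0152, and 0.0675 without well E4). The rule for the largest differences also named Pja1, Gapvd1 and Fpgt, with differences of 2.57, 1.998 and 1.95, and on the negative side Hist1h4c (-1.23), Ly6c1 (-1.22), Tbxa2r (-1.18) and Lsp1 (-1.04). Of these, the difference missed the threshold for Pja1 without the unsorted EGCG library of plate column 1 (adjusted p = 0.0521), for Fpgt without well E4 (adjusted p = 0.0505) and for Hist1h4c when any of 9 libraries was left out (adjusted p up to 0.0899).

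In pathogenic Th17 cells after 1 division, Il17a, Il17f and Il22 moved the other way with EGCG. The difference between the Th17n and the Th17p response passed for 1867 genes (17.5%), 894 more positive in Th17n (8.38%) and 973 more negative (9.12%). Il17f stood at 2149 ± 162 TPM (SD, n = 4) with DMSO and 384 ± 46.8 TPM (SD, n = 5) with EGCG in Th17p cells, a fall by 2.49 ± 0.21 on the log2 scale where Th17n cells rose (difference 3.46 ± 0.29, adjusted p = 1.93e-14). Il17a was at -1.44 ± 0.47 in Th17p cells (difference 3.11 ± 0.66, adjusted p = 3.14e-04) and Il22 at -1.82 ± 0.44 (difference 3.92 ± 0.62, adjusted p = 2.19e-06), and with well A4 included the Il22 difference was 2.45 (adjusted p = 0.0739). Il21 (1.15 against -0.03, adjusted p of the difference = 8.42e-06), Ccl20 (2.702 against 0.67, adjusted p = 0.00232), Cd5l (1.91 against -0.48, adjusted p = 2.12e-05), Pdpn (1.45 against -0.04, adjusted p = 1.06e-05) and Cyp1b1 (2.097 against 0.34, adjusted p = 3.26e-05) differed in the same direction. Foxp3 fell in Th17n cells and was at -0.17 in Th17p cells, where it averaged 0.254 TPM with DMSO and 0.106 TPM with EGCG (difference -1.79, adjusted p = 7.01e-08). With a pseudocount of 0.1 the differences of Foxp3 (adjusted p = 0.240), Pdpn (0.103), Ccl20 (0.307) and Cyp1b1 (0.129) did not pass. Socs3 fell in both, by less in Th17n (-0.67 against -1.45, adjusted p of the difference = 5.90e-08). Most p53 targets rose in both: 28 of 35 here and 31 of 35 in Th17p cells, where 33.7% of all genes were higher and 11.9% lower. Their medians were 0.75 and 1.37, and 14 of the 35 differed, all with the less positive change in Th17n. Phlda3 was the widest apart of those described above (1.86 against 4.12, adjusted p = 1.05e-04), while for Cdkn1a the difference was 0.32 ± 0.25 (adjusted p = 0.433). The G2 and M phase genes fell in 34 of 42 in Th17p cells, with a median of -0.47 beside -0.16 here, and 25 of the 42 differences passed, all with the more positive change in Th17n. The same rule added Ildr1 for its difference (2.73). On the negative side it added the lysosomal membrane gene Lamp1 (-5.36), the chemokine Ccl1 (-3.07), the phosphatase Dusp2 (-3.03), Scand1 (-2.67) and Bloc1s4 (-2.66). A negative difference is a less positive or more negative change in Th17n than in Th17p cells, and need not be a fall in Th17n cells. The change of Lamp1 in Th17n cells did not pass.

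DHEA, given at 50 µM against methanol, gave another reference in the same Th17n Div.1 cells, though dose and solvent both differ from those of EGCG. The difference of the 2 responses passed for 2484 genes (23.3%), 1775 more positive with EGCG (16.6%) and 709 more negative (6.64%), and after rescaling 1145 (10.7%) and 1100 (10.3%) (71.5% against 51% more positive). With DHEA Il17a fell by 2.49 ± 0.44 on the log2 scale (difference 4.16 ± 0.64, adjusted p = 7.29e-07) and Il17f by 1.34 ± 0.20 (difference 2.32 ± 0.29, adjusted p = 2.66e-09). Il22 (-1.13 with DHEA), Cd5l (-1.97) and Cyp1b1 (-1.84) were lower with DHEA too, and their differences from the EGCG response were 3.23, 3.88 and 3.94 (adjusted p = 2.59e-05, 2.50e-11 and 7.74e-16). With well A4 included the Il22 difference was 1.77 (adjusted p = 0.190). Il21, Ccl20 and Pdpn, at 0.08, 0.52 and -0.18 with DHEA, also differed (adjusted p = 1.66e-05, 5.21e-04 and 5.08e-07), the last 2 not with a pseudocount of 0.1 (adjusted p = 0.0574 and 0.0726). Lrrc32 rose with DHEA where it fell with EGCG (1.75 ± 0.20 with DHEA, difference -2.57, adjusted p = 1.12e-10). Foxp3 was at -0.13 ± 0.16 with DHEA (difference -1.82, adjusted p = 9.03e-09). Cdkn1a rose with both agents, by 1.89 ± 0.17 with DHEA (difference 1.54 ± 0.24, adjusted p = 1.19e-06), and 20 of the 35 p53 targets rose with DHEA, where 22.1% of all genes were higher, with a median of 0.35. Ak1 (0.67 with DHEA, difference 3.54, adjusted p = 4.38e-12), Tnfsf4 (0.40, difference 3.02, adjusted p = 5.31e-12) and Ctla4 (0.03, difference 1.64, adjusted p = 3.22e-12) had a more positive change with EGCG. The same rule added Chac1 (-2.19), H2-Q7 (-2.13) and Ms4a4b (-2.101), whose changes were more positive with DHEA. H2-Q7 has near-identical neighbours that share its reads. The side-by-side plot of responses shows these genes.

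**Figure D4:**
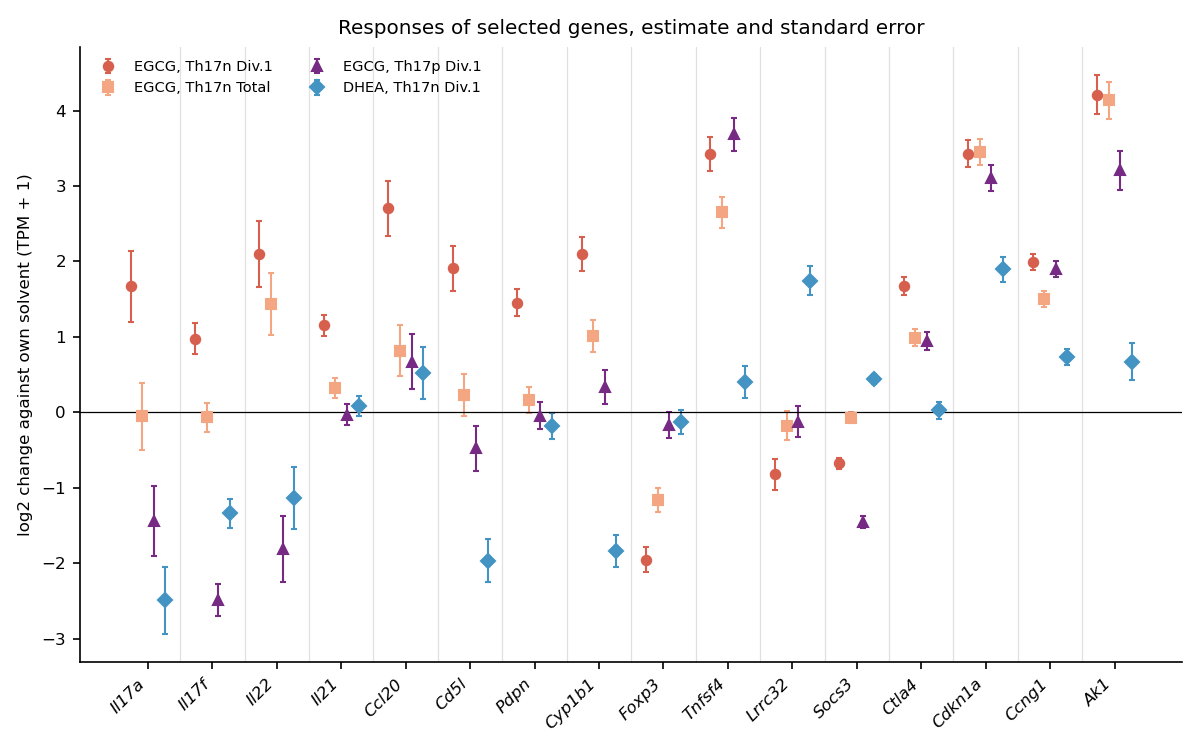
Log2 change against the matching solvent (vertical axis, on log2 of TPM + 1) with its standard error for 16 genes under EGCG in Th17n cells after 1 division (red circles), EGCG in unsorted Th17n cells (orange squares), EGCG in Th17p cells after 1 division (purple triangles) and DHEA in Th17n cells after 1 division (blue diamonds). Il17a and Il17f lie above 0 for the red circles and below 0 for the triangles and diamonds, while Cdkn1a and Ccng1 lie above 0 in all 4.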

How the data were processed

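Mouse Th17 cultures were sequenced as polyA RNA, and the deposited values are TPM per gene, made by the authors with Trimmomatic and kallisto on mm10 per the submitters' processing notes, with versions not given in the sources used here. TPM keeps no read counts, so the depth and counting error are unknown and no count model was used. Groups came from the labels, and well A4 was left out of the fits. Levels were taken as log2 of TPM + 1 (pseudocount 1), genes with at least 1 TPM in at least 4 of the 79 libraries were kept (10674 of 20465), and 16 group means were fitted over 78 libraries with limma 3.58.1 (R 4.3.3, lmFit and eBayes with trend), so that all groups share 1 estimate of the spread. Genes were called at an adjusted p under 0.05, two-sided, Benjamini-Hochberg over all genes tested. Differences between responses were contrasts of the same fit. The p-values measure the spread between libraries, which the series attributes to separate mice without saying which well is which mouse. The script was tested on simulated data first. Named genes were the 12 largest changes each way among called genes without overlap and with a higher-group mean of 5 TPM or more, 5 each way for each difference, and members of the gene lists, and some of the genes so named are not reported here. Members and lists were chosen with earlier results of these data known. Alternatives were a pseudocount of 0.1, no filter, rescaling by the median ratio, the groups fitted alone, the plate column as a block, well A4 put back, and each library left out. Positions are from GENCODE and promoters from RefSeq on GRCm38.p6, and figures were drawn in Python 3.11.15 with matplotlib 3.10.9.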

Additional observations from a re-analysis of the deposited data

Results flagged for a closer look

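Single libraries stood apart from the rest of their group for 18 of the 322 gene and group pairs checked, where a gap this large is found by chance in about 5% of groups. In the DMSO group these were Anxa2 in well E3 (75.96 TPM, others 53.4 to 54.9), Ccng1 in well E4 (53.6 TPM, others 58.6 to 59.7), Cdc20 in well E1 (346 TPM, others 337 to 338), Ctla4 in well E4 (67.8 TPM, others 83.2 to 86.8), Fas in well E4 (17.1 TPM, others 13.3 to 13.7), Gbp4 in well E4 (3.72 TPM, others 2.54 to 2.67), Irgm1 in well E4 (30.9 TPM, others 23.9 to 24.7), Itgal in well E4 (68.3 TPM, others 80.99 to 83.7), Ly6k in well E2 (9.35 TPM, others 12.6 to 13.3), Nrp1 in well E3 (2.59 TPM, others 1.64 to 1.6997) and Slc1a5 in well E3 (174 TPM, others 159.8 to 160.02). In the EGCG group they were Il12rb2 in well G2 (5.68 TPM, others 6.39 to 6.69), Il17a in well G1 (445 TPM, others 334 to 361), Ltb in well G5 (276 TPM, others 201 to 218), Psrc1 in well G1 (53.02 TPM, others 63.9 to 66.8), Tbx21 in well G1 (3.99 TPM, others 10.6 to 11.8), Tnfrsf1b in well G5 (30.9 TPM, others 29.9 to 30.1) and Zmat3 in well G1 (12.6 TPM, others 19.1 to 20.8). For Tbx21 the stray value sits beside a change that did not pass, and for Il17a and Zmat3 the groups do not overlap with or without the stray library.

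Responses that differed between groups by limma's test of the difference itself are given as the difference of 2 log2 changes. Between Th17n cells after 1 division and unsorted Th17n cells 1420 genes differed, and of those named above the response after 1 division was more positive for Pja1 2.57, Gapvd1 1.998, Fpgt 1.95, Ccl20 1.88, Cd5l 1.68, Il17f 1.04, Pdpn 1.28 and Ctla4 0.68, and more negative for Hist1h4c -1.23, Ly6c1 -1.22, Tbxa2r -1.18, Lsp1 -1.04 and Foxp3 -0.79. Between Th17n and Th17p cells after 1 division 1867 genes differed, and the Th17n response was more positive for Il22 3.92, Il17f 3.46, Il17a 3.11, Ildr1 2.73, Cd5l 2.39, Pdpn 1.496, Ccl20 2.03, Il21 1.18, Cyp1b1 1.76 and Socs3 0.78, and more negative for Lamp1 -5.36, Ccl1 -3.07, Dusp2 -3.03, Scand1 -2.67, Bloc1s4 -2.66, Foxp3 -1.79 and Phlda3 -2.26. Between EGCG and DHEA, at unlike doses and in unlike solvents, 2484 genes differed, and the EGCG response was more positive for Il17a 4.16, Cyp1b1 3.94, Cd5l 3.88, Ak1 3.54, Il22 3.23, Pdpn 1.63, Ccl20 2.18, Il17f 2.32, Cdkn1a 1.54, Tnfsf4 3.02, Ctla4 1.64 and Il21 1.07, and more negative for Lrrc32 -2.57, Chac1 -2.19, H2-Q7 -2.13, Ms4a4b -2.101 and Foxp3 -1.82.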

How the results depend on the processing

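Of 3808 values under an alternative setting, for 211 changes and differences of single genes, 3641 kept their direction and side of the threshold, 137 lost the call, 14 gained one and 16 changed sign. Rescaling by the median ratio moved the EGCG calls to 1642 higher and 1671 lower, the lower differences from unsorted cells to 714, and the differences from DHEA to 1145 and 1100. It shifts the median gene by -0.11 for EGCG, by -0.07 for the difference from unsorted cells and by -0.08 for that from DHEA. With well A4 included the sign changed for Aqp3 (1.17), Il23r (-0.17), Il9 (1.51), Tbx21 (-0.28), Tnfrsf13b (0.43) and the Foxp3 difference from unsorted cells (0.43). Rescaling turned Ahr (-0.0737). Values near 0 changed sign with single libraries left out for G6pdx (-0.0391 to 0.0262) and the Cdkn1a difference from unsorted cells (-0.141 to 0.114), and none of these passed. Leaving out 1 library at a time gave 3178 to 3577 EGCG calls (2558 to 2878 higher, 485 to 725 lower), 958 to 1536 differences from unsorted cells (798 to 1226 and 160 to 320, the 160 without well E1), 1571 to 1965 from Th17p (755 to 963 and 816 to 1002) and 2147 to 2615 from DHEA (1459 to 1981 and 625 to 775). A pseudocount of 0.1 gave 2939 higher and 681 lower, no filter 2810 and 701, and the 2 groups fitted alone 2790 and 576, in which Fbl, Klf2, Srm, Trp53 and the Pja1 and Foxp3 differences from unsorted cells did not pass, while Aqp3 and the Il17a difference from unsorted cells did. Plate columns may pair the wells, since each DMSO library correlated best with the EGCG library of its own column (r = 0.245, 0.0566, 0.128 and 0.152 for columns 1 to 4), but the labels do not say so and 1 pair was under 0.1, so this is a hint from the data only. With the column as a replicate block 3243 genes were higher and 954 lower, the lower differences from unsorted cells were 462, and of the single-gene calls Aqp3 alone changed. Without the wells of column 1, a choice made after seeing the data, 2487 were higher and 583 lower. The depth is unknown, which limits what can be said of genes under about 1 TPM.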

Other observations

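Some of the lists not described above are given here, with no test of the lists, and others are not reported. They are read beside the 28.1% of all genes that were higher and the 6.77% that were lower (15.4% and 15.7% after rescaling). Of 17 homing and chemokine receptor genes 3 rose and 4 fell, and 3 rose and 6 fell after rescaling. Cxcr6, the receptor for CXCL16, stood at 2.69, 3.34, 3.05 and 3.16 TPM with DMSO and 8.84, 13.9, 13.3, 9.71 and 10.6 TPM with EGCG (1.58 ± 0.18, adjusted p = 3.55e-11), and Itgal, the alpha chain of LFA-1, rose too (0.80 ± 0.07). Beside Ccr7, the skin homing receptor gene Ccr8 fell (-0.50 ± 0.12). Of 22 interferon response genes 8 rose and 1 fell, with a median of 0.26 beside 0.11 for all genes. The guanylate-binding protein genes Gbp4 (0.82 ± 0.14) and Gbp5 (0.66 ± 0.16) rose. The 1 that fell, Irgm1 (-0.35 ± 0.10, adjusted p = 0.00553), missed the threshold without well E4 (adjusted p = 0.0592). Of 20 lysosome and autophagy genes 10 rose and 1 fell, with a median of 0.18 (5 and 1 after rescaling), among them cathepsin D, Ctsd (0.43 ± 0.06), and the hexosaminidase gene Hexa (0.43 ± 0.11). Of 28 DNA repair genes 9 rose and 1 fell, near the shares of all genes, and 2 rose and 4 fell after rescaling. Those with the largest rise, Polk and Ercc5 (1.14 ± 0.11), are in the p53 target list as well. Of 24 genes of the tricarboxylic acid cycle 11 rose and 0 fell, all by small amounts, and 4 rose and 5 fell after rescaling. Mt2, a metallothionein, lay between 45.5 and 79.4 TPM with DMSO and between 77.05 and 122 TPM with EGCG (0.83 ± 0.24).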
